A study of Mus musculus with 185 samples.

Results

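The matrix-binding integrins described here are 9 genes for receptor subunits through which fibroblasts hold on to the extracellular matrix. They were chosen by name as subunits that bind matrix proteins, and all 9 are listed in the deposited table of 17171 genes. The beta subunits are Itgb1, Itgb3 and Itgb5, and the alpha subunits are Itga1, Itga4, Itga5, Itga8, Itga11 and Itgav.

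An integrin is a heterodimer of an alpha and a beta subunit that spans the cell membrane, binds a matrix protein outside the cell and is coupled through talin, kindlin and further adaptors to actin inside it. The beta subunit encoded by Itgb1 pairs with each of the alpha subunits named above, whereas those encoded by Itgb3 and Itgb5 pair with the subunit encoded by Itgav. In a healing heart, fibroblasts use such receptors to grip collagen and fibronectin, and the integrins that contain the Itgav product are also known to release latent TGF-beta from the matrix.

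RNA was measured in single non-myocyte cells from the hearts of C57BL/6 mice of about 5 months, captured on the Fluidigm C1 system, which isolates and amplifies each cell in a site of its own. Infarct cells (152) came from hearts 7 days after myocardial infarction by permanent ligation of the left coronary artery, and 33 cells came from hearts that the labels call uninjured. The mice were of 2 genotypes, Postn MCM/+; R26-eGFP and, for the other tracer, Tcf21 MCM/+; R26-eGFP, and carry a tamoxifen-inducible Cre at the Postn (periostin) or the Tcf21 locus and an eGFP reporter that Cre switches on for good, and they were given tamoxifen in their chow. Cells positive for CD31, CD45 or the dead-cell dye 7AAD were sorted out, so endothelial cells and leukocytes were depleted before capture. A traced cell is one in which the driver gene was active while tamoxifen was present, whatever it expresses at capture, and Cre leaves some expressing cells unmarked. The Cre cassette sits in 1 allele of the driver gene, and eGFP was read under a microscope after capture. The labels call the control cells uninjured, while the paper speaks in different places of uninjured hearts, sham hearts and uninjured regions of the heart.

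The cells fall into 4 captures and 9 classes. No label names a capture, and the captures were read from the date-like prefixes of the cell names. These are Jul24 (here the uninjured-heart capture), Jul29 (Postn-tracer capture), Nov4 (Tcf21-tracer capture) and Nov11 (scar capture). The uninjured-heart capture held 17 resident Tcf21-traced cells, 12 resident CD31- CD45- cells, 3 resident Tcf21-positive cells that expressed Postn and 1 CD31- CD45- cell that expressed Postn. The Postn-tracer capture held 27 activated Postn-traced cells, 24 activated Postn-negative cells and 6 untraced Postn-positive cells. The Tcf21-tracer capture held 44 activated Tcf21-traced cells and 19 untraced Postn-positive cells, and the scar capture held 29 untraced scar cells with 3 untraced Postn-positive cells. The label of the untraced Postn-positive cells names no tracer. Read by capture, the 6 cells lack the Postn trace and the 19 cells lack the Tcf21 trace, so this class pools cells that are untraced in different senses. Postn-negative and Postn-positive are classes named for Postn by labels that do not say how it was read, so Postn itself is no finding between them. Its mRNA was above 5 TPM in 3 of the 24 activated Postn-negative cells. It was so in 3 of the 12 resident CD31- CD45- cells, which the labels also call Postn-negative. No label ties a cell to a mouse. Each class was therefore treated as a single pool of cells without replicates. No test was possible, and every SD below is the spread between cells.

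Values are log2 (TPM+1), where TPM is a transcript abundance scaled for transcript length and to a total shared by all cells. Back on the linear scale, the values of a cell summed to between 999257 and 1000000, so read depth cannot be seen in them. The number of genes above 5 TPM, the minimum used for detection, stands in for it. That number ran from 141 to 5419 per cell with a median of 2770, and its class median was 3643 in the Postn-traced, 3280.5 in the untraced Postn-positive, 3177 in the scar, 3134 in the activated Tcf21-traced, 2342 in the Postn-negative, 2264 in the resident Tcf21-traced and 2091.5 in the resident CD31- CD45- cells. Classes with more detected genes could also show more cells with any given integrin, and the share of that in the results was not tested. The scar class holds 5 nearly empty cells with 141 to 264 detected genes, in which no integrin was above 5 TPM except Itgb1 in 1 of them. Intervals given with a share are exact 95% limits after Clopper and Pearson and cover counting error only.

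Over all cells together the integrins fell into a common, an intermediate and a rare set. Itgb1, the shared beta subunit of the collagen and fibronectin receptors, was above 5 TPM in 161 cells (interval 81.3% to 91.5%) with a mean of 340 TPM. Itgb5, a beta subunit of vitronectin receptors, was above the minimum in 120 cells (64.9%) with a mean of 197 TPM. Itgav, its alpha partner, was close to it in detection, with 116 cells (62.7%), but far below it in abundance, with a mean of 36.8 TPM. Itga5, the alpha subunit of the main fibronectin receptor, reached the minimum in 63 cells (34.1%) with a mean of 29.1 TPM, and Itga11, the alpha subunit of a fibrillar collagen receptor of mesenchymal cells, in 58 cells (31.4%) with a mean of 37.7 TPM. Itga1, a collagen and laminin receptor subunit, was seen in 30 cells (16.2%). The remaining 3 genes were rare: Itgb3 was above the minimum in 13 cells, Itga4 in 8 and Itga8 in 5.

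**Figure D1:**
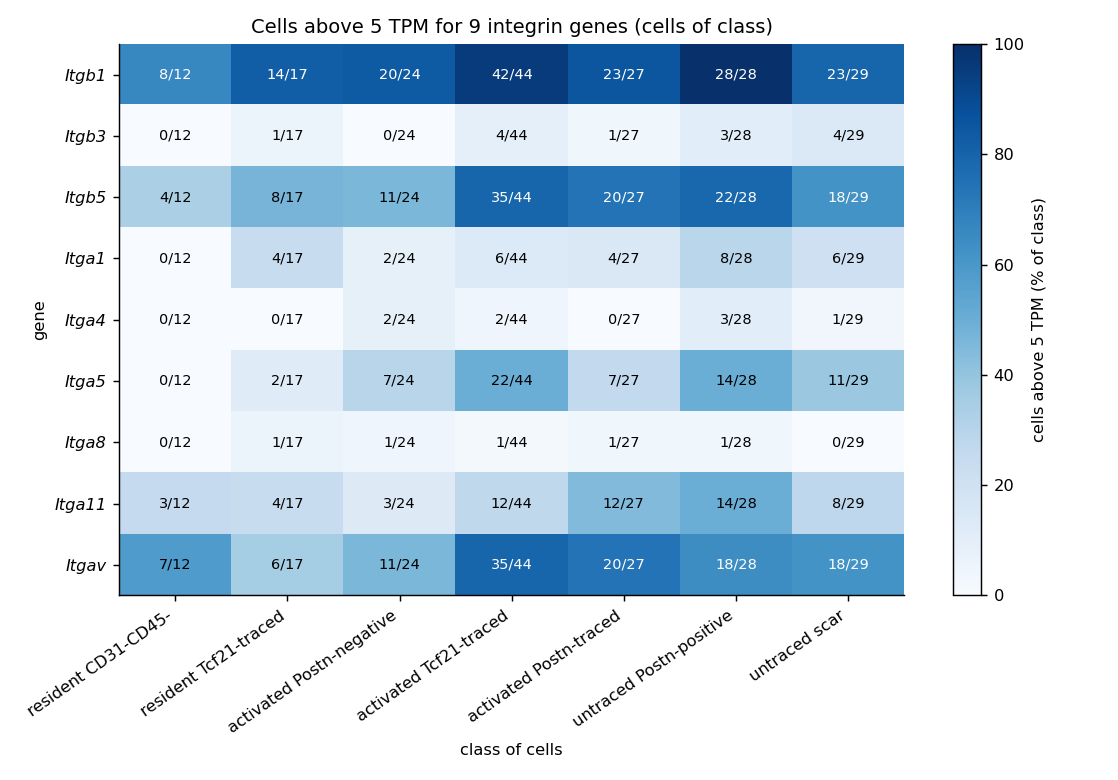
Number of cells above 5 TPM for each of the 9 integrin genes (vertical axis) in 7 classes of cells (horizontal axis), with the colour giving the percent of the class. Itgb1 is dark in every class, from 8 of 12 to 28 of 28 cells, Itga5 runs from 0 of 12 to 22 of 44, and Itgb3, Itga4 and Itga8 are pale in every class.

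Of the beta subunits, Itgb1 was found in the most cells in each of the 7 main classes. In the untraced Postn-positive cells it ran from 5.12 over a median of 8.68 to 10.11, and all 28 cells were above 5 TPM. In the activated Tcf21-traced cells its lowest, median and highest values were 0, 8.69 and 10.59. The Postn-traced cells ran from 0 over 8.21 to 9.94, and the Postn-negative cells from 0 over 6.25 to 10.02. These infarct classes overlapped almost entirely, and the shares above 5 TPM were close in the Postn-traced and Postn-negative cells (85.2% and 83.3%). In the resident Tcf21-traced cells the lowest, median and highest values were 0, 7.53 and 10.49. The resident CD31- CD45- cells ran from 1.02 over 5.78 to 9.63, and the scar cells from 0 over 7.32 to 11.33, a top value that belongs to a cell with 188 detected genes. The resident classes thus lay inside the range of the infarct classes.

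Ordered by mean, Itgb1 was 8.42 ± 1.22 (SD between cells) in the untraced Postn-positive cells, 8.07 ± 2.14 in the activated Tcf21-traced cells and 7.02 ± 3.05 in the Postn-traced cells. Lower means followed in the resident Tcf21-traced (6.43 ± 3.15), scar (6.29 ± 3.35), Postn-negative (5.90 ± 3.11) and resident CD31- CD45- cells (5.80 ± 3.32). Without the 6 scar cells under 50% of the median gene number of their capture, the scar mean was 7.30 ± 2.11, above that of the Postn-traced cells. No gap between neighbours in the order of all cells exceeded the SD of either class. The untraced Postn-positive class stood out by its narrow spread, since it had no cell without detected Itgb1.

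Itgb5 varied more between classes and between the cells of each class. It ran from 0 over a median of 6.80 to 11.82 in the untraced Postn-positive cells, from 0 over 6.44 to 10.55 in the activated Tcf21-traced cells and from 0 over 5.52 to 9.32 in the Postn-traced cells. In the scar cells the median was 5.26 and the highest value 9.62. Medians were much lower in the remaining classes, with 1.69 (highest 11.44) in the Postn-negative, 1.90 (highest 10.42) in the resident Tcf21-traced and 0.61 (highest 8.58) in the resident CD31- CD45- cells. Every class held cells at 0 and cells above 8, so the classes overlapped widely. Itgb5 was above 5 TPM in 35 of 44 activated Tcf21-traced cells (79.5%, interval 64.7% to 90.2%), 22 of 28 untraced Postn-positive cells (78.6%) and 20 of 27 Postn-traced cells (74.1%, 53.7% to 88.9%). It was above it in 18 of 29 scar (62.1%), 8 of 17 resident Tcf21-traced (47.1%), 11 of 24 Postn-negative (45.8%) and 4 of 12 resident CD31- CD45- cells (33.3%). Means followed nearly the same order, from 5.86 ± 3.54 in the untraced Postn-positive to 2.27 in the resident CD31- CD45- cells, with every gap between neighbours below both SDs. Without the 6 scar cells with few genes the scar mean was 4.98, with 17 of 23 cells above 5 TPM.

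Itgb3, the beta subunit of the classical vitronectin receptor and of the platelet fibrinogen receptor, was scarce throughout. It was above the minimum in 4 of 44 activated Tcf21-traced, 4 of 29 scar, 3 of 28 untraced Postn-positive, 1 of 27 Postn-traced and 1 of 17 resident Tcf21-traced cells. In the Postn-negative class 0 of 24 cells were above it, which allows a share of up to 14.2%, and in the resident CD31- CD45- class 0 of 12, which allows up to 26.5%. The highest value in any cell was 7.43, in a resident Tcf21-traced cell. Among platelet genes, which Itgb3 could accompany, Pf4 was above 5 TPM in 17 cells, Gp1bb in 15, Itga2b in 6 and Gp9 in 1, and no cell held 3 of these 4 genes. At these counts no order of the classes was detectable for Itgb3.

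**Figure D2:**
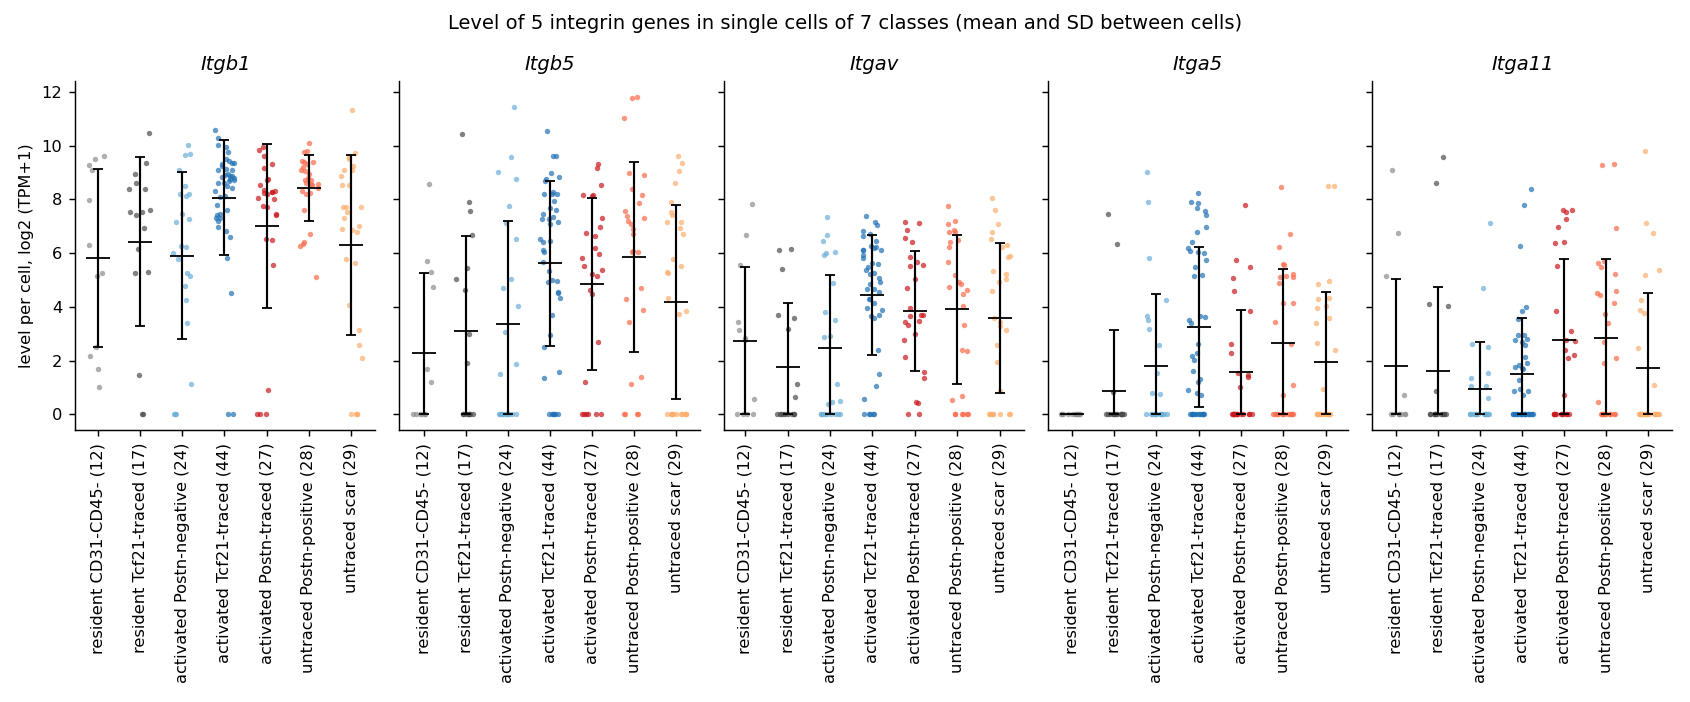
Level of Itgb1, Itgb5, Itgav, Itga5 and Itga11 in log2 (TPM+1) (vertical axis) in each cell (points) of 7 classes (horizontal axis, number of cells in brackets), with the class mean (bar) and SD between cells (whiskers, stopped at 0). Cells at 0 are common for every gene but Itgb1, Itgav cells of the activated Tcf21-traced class centre on 4.44, and Itga5 lies at 0 in all 12 resident CD31- CD45- cells.

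Among the alpha subunits, Itgav was detected most often in activated Tcf21-traced cells and least often in resident Tcf21-traced cells. In the activated class it ran from 0 over a median of 5.00 to 7.37, with 35 of 44 cells above 5 TPM (79.5%, interval 64.7% to 90.2%). Among the resident Tcf21-traced cells it ran from 0 over 0 to 6.14, with 6 of 17 cells above it (35.3%, 14.2% to 61.7%). The values of single cells overlap, and these classes come from different captures. The Postn-traced cells ran from 0 over 3.71 to 7.17 (20 of 27 above 5 TPM), the untraced Postn-positive cells from 0 over 4.69 to 7.74 (18 of 28) and the scar cells from 0 over 3.58 to 8.05 (18 of 29). The Postn-negative cells had a median of 0.80 and a highest value of 7.33 (11 of 24), and the resident CD31- CD45- cells a median of 2.81 and a highest value of 7.81 (7 of 12). The means ran from 4.44 ± 2.22 in the activated Tcf21-traced to 1.76 ± 2.38 in the resident Tcf21-traced cells, and neighbours in the order differed by less than either SD. Without the 6 scar cells with few genes, Itgav had a scar mean of 4.53 ± 2.33 and was above 5 TPM in 18 of 23 scar cells, level with the activated Tcf21-traced cells.

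Itga5 was found more often in infarct cells than in cells of uninjured hearts. It was above 5 TPM in 61 of 152 infarct cells (40.1%, interval 32.3% to 48.4%) and in 2 of 33 cells of uninjured hearts (6.06%, 0.743% to 20.2%). The uninjured cells all came from 1 capture and had fewer detected genes, with a median of 2258 against 2715, 3299 and 3198.5 in the Postn-tracer, Tcf21-tracer and scar captures, so injury and capture cannot be told apart. By class, Itga5 ran from 0 over a median of 2.44 to 8.24 in the activated Tcf21-traced cells (22 of 44 above 5 TPM) and from 0 over 1.86 to 8.44 in the untraced Postn-positive cells (14 of 28). The median was 0 in all other classes. The cell with the highest Itga5 of all was Postn-negative (7 of 24 above 5 TPM), and the top values were 8.51 in the scar (11 of 29), 7.79 in the Postn-traced (7 of 27) and 7.46 in the resident Tcf21-traced cells (2 of 17). All 12 resident CD31- CD45- cells were listed at 0, which allows a share of up to 26.5%. Class means ran from 3.24 ± 2.97 in the activated Tcf21-traced to 0.86 ± 2.29 in the resident Tcf21-traced cells, and no step between neighbours among the classes with detected Itga5 exceeded the SD of either. Without its 6 cells with few genes the scar class had 11 of 23 cells with Itga5 (47.8%) and a median of 2.39.

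The untraced Postn-positive class spans 3 captures, in which untraced does not refer to the same tracer, and Itga5 differed between them. It was above 5 TPM in 13 of its 19 cells of the Tcf21-tracer capture (68.4%, interval 43.4% to 87.4%), in 0 of its 6 cells of the Postn-tracer capture (up to 45.9%) and in 1 of 3 cells of the scar capture. Itgav showed the same order, with 14 of 19, 2 of 6 and 2 of 3 cells. Itgb5 was above 5 TPM in 16 of 19, 3 of 6 and 3 of 3 cells, with means of 6.42, 3.52 and 6.97. Itga11 was nearly level, with 10 of 19, 3 of 6 and 1 of 3 cells. Median numbers of detected genes were 3361, 2234.5 and 5179 in these 3 sets of cells, and their part in the difference was not tested.

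Itga11 had its highest means of log2 values in the untraced Postn-positive and the Postn-traced cells. By mean TPM, however, the resident Tcf21-traced cells were highest (69.6), followed by the untraced Postn-positive (59.8), resident CD31- CD45- (57.2), scar (43.2) and Postn-traced cells (40.6). In the same order, a single cell held 64.2%, 37.8%, 79.5%, 70.4% and 17.5% of the class sum. Itga11 ran from 0 over a median of 2.23 to 7.59 in the Postn-traced cells, where 12 of 27 were above 5 TPM (44.4%, interval 25.5% to 64.7%). The untraced Postn-positive cells ran from 0 over 2.38 to 9.31, with 14 of 28 above it (50%, 30.6% to 69.4%). In the Postn-negative cells the median was 0 and the highest value 7.11, with 3 of 24 cells above it (12.5%, 2.66% to 32.4%). The remaining classes lay between these, with 12 of 44 activated Tcf21-traced, 8 of 29 scar, 4 of 17 resident Tcf21-traced and 3 of 12 resident CD31- CD45- cells. Postn itself was above 5 TPM in 39 of the 44 activated Tcf21-traced and 24 of the 29 scar cells. The Itga11 means of these classes were 1.51 and 1.71, against 1.60 in the resident Tcf21-traced and 1.81 in the resident CD31- CD45- cells. High Itga11 thus did not go with Postn in every class. The gene was not restricted to the infarct: 49 of 152 infarct cells (32.2%) and 9 of 33 uninjured cells (27.3%) were above the minimum, and single resident cells reached 9.57 and 9.09, above the top Postn-traced cell. Means ran from 2.84 ± 2.96 in the untraced Postn-positive and 2.78 ± 2.98 in the Postn-traced cells down to 0.94 ± 1.76 in the Postn-negative cells, with every gap between neighbours below both SDs.

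The other alpha subunits were found in few cells. Itga1 was above 5 TPM in 8 of 28 untraced Postn-positive, 4 of 17 resident Tcf21-traced, 6 of 29 scar, 4 of 27 Postn-traced, 6 of 44 activated Tcf21-traced and 2 of 24 Postn-negative cells, and in 0 of 12 resident CD31- CD45- cells. Its class means were low, and the median was 0 in each of these 7 classes. The highest mean was that of the resident Tcf21-traced cells (SD 2.91, mean TPM 35.7, with 69.1% of the sum in a single cell). It was followed by 1.39 ± 2.40 in the untraced Postn-positive cells (mean TPM 13.6). Itga4, which encodes a receptor subunit for fibronectin and for the adhesion molecule VCAM-1, was above the minimum in 3 untraced Postn-positive, 2 Postn-negative, 2 activated Tcf21-traced and 1 scar cell, and in 0 of the 33 uninjured cells (up to 10.6%). Itga8, a nephronectin receptor subunit, was above it in 5 cells of 5 different classes. A single cell held the whole summed TPM of Itga8 in the Postn-traced, in the activated Tcf21-traced and in the resident Tcf21-traced class, so no class level of this gene can be compared.

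The 4 cells of uninjured hearts that expressed Postn form classes too small to compare. Among the 3 that were Tcf21-positive, Itgb1 was above 5 TPM in 3, Itgb5 in 1, Itga11 in 1 and the other members in 0. The CD31- CD45- cell had Itgb5 at 10.23, Itgav at 7.26 and Itga11 at 7.19, while Itgb1 was listed at 0.

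In mm10 with GENCODE M21 the 9 genes lie apart on 7 chromosomes. Itgb1 is at chr8:128685654-128733200 (plus strand), Itgb3 at chr11:104608000-104670476 (plus) and Itgb5 at chr16:33829665-33949338 (plus). Itga1 is at chr13:114953096-115101964 (minus), Itga4 at chr2:79255426-79333123 (plus), Itga5 at chr15:103344286-103366763 (minus), Itga8 at chr2:12106632-12301922 (minus), Itga11 at chr9:62677826-62783982 (plus) and Itgav at chr2:83724397-83806916 (plus). The libraries do not keep the strand, so reads from exons that overlap another gene could not be assigned by strand. Exons of Itga4 overlap those of Cerkl on the other strand, those of Itga8 overlap the antisense gene E030013I19Rik, those of Itgav overlap Gm13684 and those of Itga1 overlap Gm49395 on the same strand, which leaves the values of these 4 integrins uncertain to that extent. Cerkl was above 5 TPM in 6 cells, and the other 3 partners are not listed in the table.

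The promoters of 4 members are printed because Itgb1 was detected most widely and because Itga11, Itgav and Itga5 each stayed more than 1 log2 unit apart in 1 of the comparisons below under every alternative. RefSeq promoter entries on GRCm38.p6 matched 8 of the 9 members, Itgb3 being the member without a match. The windows are 250 bases before the RefSeq start for Itgb1 (chr8:128685404-128685653, plus strand), Itga5 (chr15:103366792-103367041, minus strand) and Itgav (chr2:83724147-83724396, plus strand) and the 221 bases before the GENCODE start for Itga11 (chr9:62677605-62677825, plus strand). Each is written 5' to 3' in lower case, and capitals mark a match on either strand to the letters GGGCGG (the GC box) or GGAATG (the TEAD motif).
Itgb1: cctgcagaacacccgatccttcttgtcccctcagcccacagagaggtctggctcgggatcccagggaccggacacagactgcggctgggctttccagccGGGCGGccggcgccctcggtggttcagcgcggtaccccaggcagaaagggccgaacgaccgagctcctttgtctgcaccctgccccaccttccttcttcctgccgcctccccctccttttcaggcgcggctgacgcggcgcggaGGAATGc
Itga11: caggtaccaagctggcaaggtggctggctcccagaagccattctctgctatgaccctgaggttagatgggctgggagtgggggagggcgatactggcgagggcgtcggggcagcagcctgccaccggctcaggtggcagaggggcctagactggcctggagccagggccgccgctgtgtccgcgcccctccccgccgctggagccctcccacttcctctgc
Itga5: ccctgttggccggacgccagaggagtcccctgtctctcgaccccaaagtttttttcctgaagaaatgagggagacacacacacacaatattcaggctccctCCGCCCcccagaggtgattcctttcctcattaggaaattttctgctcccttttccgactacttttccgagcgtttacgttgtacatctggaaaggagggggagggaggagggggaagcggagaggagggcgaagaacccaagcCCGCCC
Itgav: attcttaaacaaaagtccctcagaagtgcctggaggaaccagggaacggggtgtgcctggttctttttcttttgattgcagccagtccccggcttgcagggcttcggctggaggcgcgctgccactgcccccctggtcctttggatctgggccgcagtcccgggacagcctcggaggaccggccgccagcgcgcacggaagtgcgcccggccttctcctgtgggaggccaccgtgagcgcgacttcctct
Among 32851 promoter entries, 32.7% held the GC box in the 250 bases before the start and 12.6% held GGAATG. The letters TATAAA of the TATA box were in 12.4% of the entries, the AP-1 letters TGANTCA in 6.75% and the CArG box in 1.47%. The 250-base window of Itgb1 held 1 GC box and 1 TEAD match, which do not overlap, that of Itga5 held 2 GC boxes, that of Itgb5 held 3 and that of Itga4 held 1, while the windows of Itga1, Itga8, Itga11 and Itgav held no match to any of the 5 motifs. None of the 8 members held the TATA, AP-1 or CArG letters. The windows were rich in G and C, from 55.6% for Itga5 to 68.4% for Itga11, against a median of 52.4% over all entries. A match is a run of letters and not a shown binding site.

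The first comparison asks how cells that had switched on Postn differ from Postn-negative cells of the same infarct capture. Means of Itgb1, Itgb5, Itga11 and Itgav were higher by over 1 log2 unit in the 27 Postn-traced cells, 4 of the 9 members against 16.7% of the 15733 genes above 5 TPM in at least 1 cell. With each cell centred on its median detected gene the same 4 members were higher, against 33.2% of all genes. As reported, Itga11 had the largest difference of means of the members, 1.84 (2.78 ± 2.98 against 0.94 ± 1.76). Itgb5 followed with 1.52 (4.87 ± 3.20 against 3.35 ± 3.86), Itgav with 1.38 (3.83 ± 2.23 against 2.45 ± 2.74) and Itgb1 with 1.11 (7.02 ± 3.05 against 5.90 ± 3.11). By medians Itgb5 (3.83) and Itgav (2.91) exceeded Itga11 (2.23). With the untraced Postn-positive cells added to the Postn-negative cells, Itgav (1.54) exceeded Itga11 (1.51). No member was more than 1 unit lower, where 2.35% of all genes were. Of these 4 differences only that of Itga11 passed an SD, that of the Postn-negative cells, and the other 3 stayed below the SD of both classes. Itga5 had no set direction: it was -0.21 as reported, 0.32 with centred cells and -1.22 when TPM was averaged before the log was taken. Itga4 at -0.40 and Itga8 at -0.07 likewise turned positive on centring, to 0.13 and 0.46, and Itgb3 (0.01) and Itga1 (0.04) were near 0 as reported.

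The background matters here, since Postn-traced cells had more detected genes (median 3643 against 2342) and the median difference of all genes was 0.19, or 0.71 after centring. Of the 4311 genes that reached 5 TPM in 25% or more of these cells, a filter that Itgb1, Itgb5, Itga5, Itga11 and Itgav pass, 42.4% were more than 1 unit higher, so 4 of 5 such integrins stand against a high background. The 13 Postn-traced and 12 Postn-negative cells within the interquartile range of gene number still differed in it (medians 3258 and 2528.5), so detection was not matched. In these cells Itga11 was 1.05 higher. The differences were 0.59 for Itgav, 0.08 for Itgb1, -0.06 for Itgb5 and -1.03 for Itga5. The higher mean of Itgb5 was also reversed when TPM was averaged before the log was taken (-0.77), with 123 TPM in the Postn-traced and 209 TPM in the Postn-negative cells, 55.3% of the latter coming from a single cell.

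The comparison of activated with resident Tcf21-traced cells asks what the same lineage expresses after infarction. Itgav, Itgb5, Itga5 and Itgb1 had means higher by over 1 log2 unit in the 44 activated cells, again 4 of 9 members, against 16.9% of all genes. Centring left the same 4 members higher, against 29.4% of all genes. The difference was 2.68 for Itgav (4.44 ± 2.22 against 1.76 ± 2.38), 2.53 for Itgb5 (5.63 ± 3.07 against 3.09 ± 3.53), 2.38 for Itga5 (3.24 ± 2.97 against 0.86 ± 2.29) and 1.64 for Itgb1 (8.07 ± 2.14 against 6.43 ± 3.15). For Itgav it exceeded the SD of both classes, for Itga5 that of the resident class only, and for Itgb5 and Itgb1 neither. Itga11 was not among them: its difference was -0.09 (1.51 ± 2.08 against 1.60 ± 3.13), 0.36 after centring and -2.02 when TPM was averaged before the log was taken. On that scale Itgb1 (0.69) and Itgb5 (0.67) were below 1 unit. Itga1 was lower by less than the call, at -0.85, and no member was more than 1 unit lower, where 2.65% of all genes were. Itga8 stood at -0.35, or 0.10 after centring, with 1 cell above 5 TPM in each class.

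These classes come from different captures, so activation and capture cannot be told apart, and the activated cells had more detected genes (median 3134 against 2264, with a median difference of all genes of 0.16, or 0.61 after centring). Among the 4194 genes that reached 5 TPM in 25% or more of them, 47.9% were more than 1 unit higher. Of the cells within the interquartile range of gene number, the 22 activated cells still had more detected genes than the 9 resident cells (medians 2943.5 and 2548). In these cells Itgav (2.25), Itgb5 (1.82) and Itgb1 (1.47) were above 1, and Itga5 was at 0.84.

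**Figure D3:**
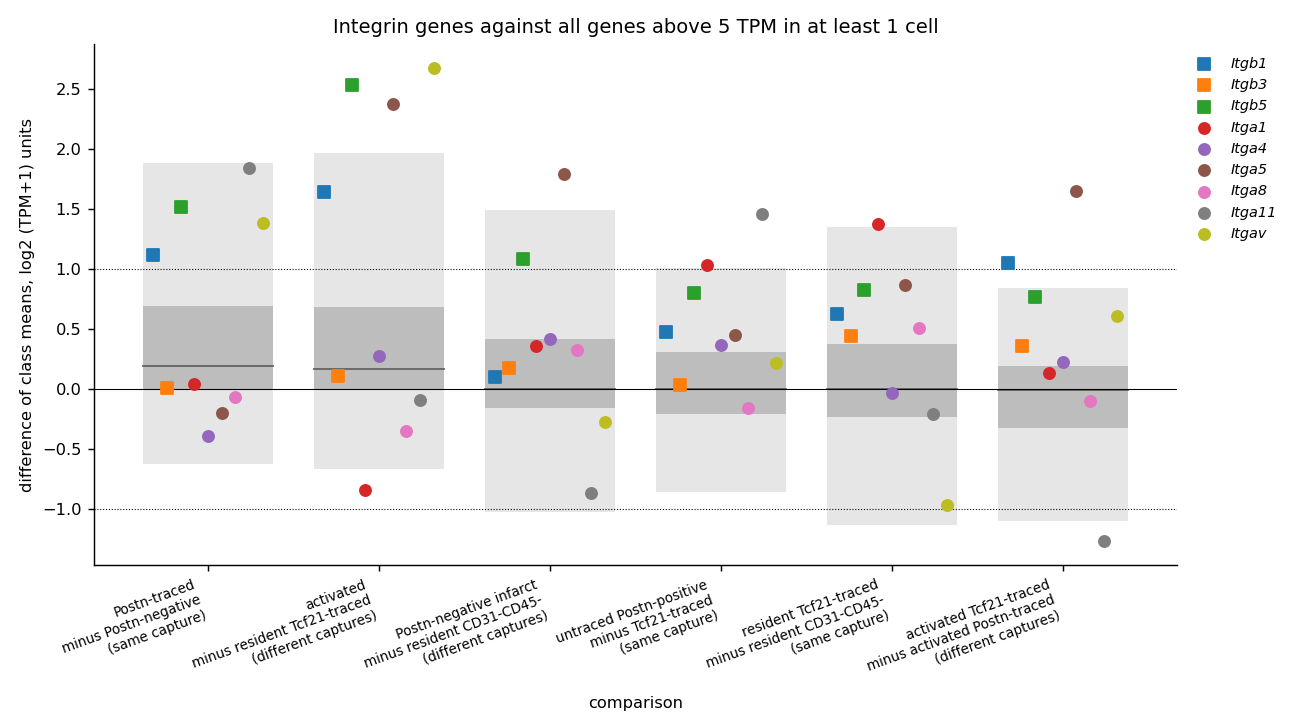
Difference of class means in log2 (TPM+1) units (vertical axis) for the 9 integrin genes (squares, beta subunits; circles, alpha subunits) in 6 comparisons (horizontal axis), over the middle 50% (dark) and 90% (light) of all genes with their median (line). Itgav, Itgb5 and Itga5 lie above the light band in activated against resident Tcf21-traced cells, Itga5 and Itgb1 lie above it and Itga11 below it in activated Tcf21-traced against Postn-traced cells, and dotted lines mark 1 and -1.

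Between Postn-negative cells of the infarct and resident CD31- CD45- cells 2 members passed 1 unit as reported, Itga5 and Itgb5. Itga5 was 1.79 higher (1.79 ± 2.68 against 12 cells at 0), and Itgb5 was 1.08 higher (a mean of 3.35 ± 3.86 against 2.27), 2 of 9 members where 10.3% of all genes were higher. No member was more than 1 unit lower, where 5.2% of all genes were, although Itga11 came near it at -0.87. Itgb1 (0.10) and Itgav (-0.28) were close to level. With 12 and 6 cells of similar gene number Itgb5 was at 0.40, Itgb1 at 1.04 and Itgav at -1.52, and Itga11 turned to 0.56. Itgb5 was also below 1 unit with pseudocount 5 (0.88). The cells come from different captures, and the median over cells of Itga5 was 0 in both classes.

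Within the Tcf21-tracer capture, the 19 untraced Postn-positive cells had more Itga11 and Itga1 than the 44 Tcf21-traced cells. Itga11 was 1.46 higher (2.97 ± 2.78 against 1.51 ± 2.08), and Itga1 was 1.03 higher (1.69 ± 2.70 against 0.66 ± 1.74), 2 of 9 members where 5.05% of all genes were higher. Both differences were below the SD of either class. With pseudocount 5 neither gene was past 1 unit (Itga11 0.97, Itga1 0.66). No member was more than 1 unit lower, where 3.34% of all genes were, and the remaining members lay between -0.16 (Itga8, 0.10 after centring) and 0.80 (Itgb5, 1.06 after centring). Centring moved the median of all genes from 0 to 0.26, and the higher genes from 60.2% to 85.2% of those past 1 unit. The numbers of detected genes were close (median 3361 against 3134). Itga1 rests on 6 cells above 5 TPM in each class, and its median was 0 in both. Compared by medians the members past 1 unit were Itga11 and Itga5 (2.46), and in the cells of similar gene number they were again Itga11 and Itga5 (1.25), with Itga1 just below 1.

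Among cells of uninjured hearts, all in 1 capture, Itga1 was 1.37 higher in the 17 Tcf21-traced than in the 12 CD31- CD45- cells (SD 2.91, against a mean of 0.13 ± 0.45). It was the only member past the call as reported, 1 of 9 where 8.65% of all genes were higher, and it rests on 4 cells. The call of Itga1 was lost with pseudocount 5 (0.94) and by medians (0). None of the members was more than 1 unit lower, where 6.55% of all genes were, but Itgav was at -0.97 (1.76 ± 2.38 against 2.73 ± 2.77). The Tcf21-traced cells had higher means of Itga5 (0.86 against 0), Itgb5 (difference 0.82) and Itgb1 (0.63), each below the SD of the Tcf21-traced cells, and Itga4 was level at -0.03, or 0.03 after centring. With 8 and 7 cells of similar gene number Itgav was at -2.04 and Itgb1 at 2.22, and Itgb5 turned to -0.33. By medians Itgav was at -2.81.

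The tracers themselves were compared in activated cells, which come from different captures. Itga5 was 1.65 higher (3.24 ± 2.97 against 1.59 ± 2.30) and Itgb1 1.05 higher (8.07 ± 2.14 against 7.02 ± 3.05) in the 44 Tcf21-traced than in the 27 Postn-traced cells, 2 of 9 members where 3.43% of all genes were higher. Itga11 was lower by more than 1 unit, at -1.27 (1.51 ± 2.08 against 2.78 ± 2.98), 1 of 9 members where 6.14% of all genes were lower. The number of detected genes was lower in the Tcf21-traced cells (median 3134 against 3643). The 19 and 16 cells within the interquartile range of gene number still differed in it (medians 3164 and 3604). In these cells Itga5 was 1.05 higher, Itga11 was at -1.95 and Itgb1 was at 0.06. The activated Tcf21-traced cells enter 3 of the 6 comparisons and the Postn-traced cells 2, so these comparisons share cells and are not independent of each other.

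**Figure D4:**
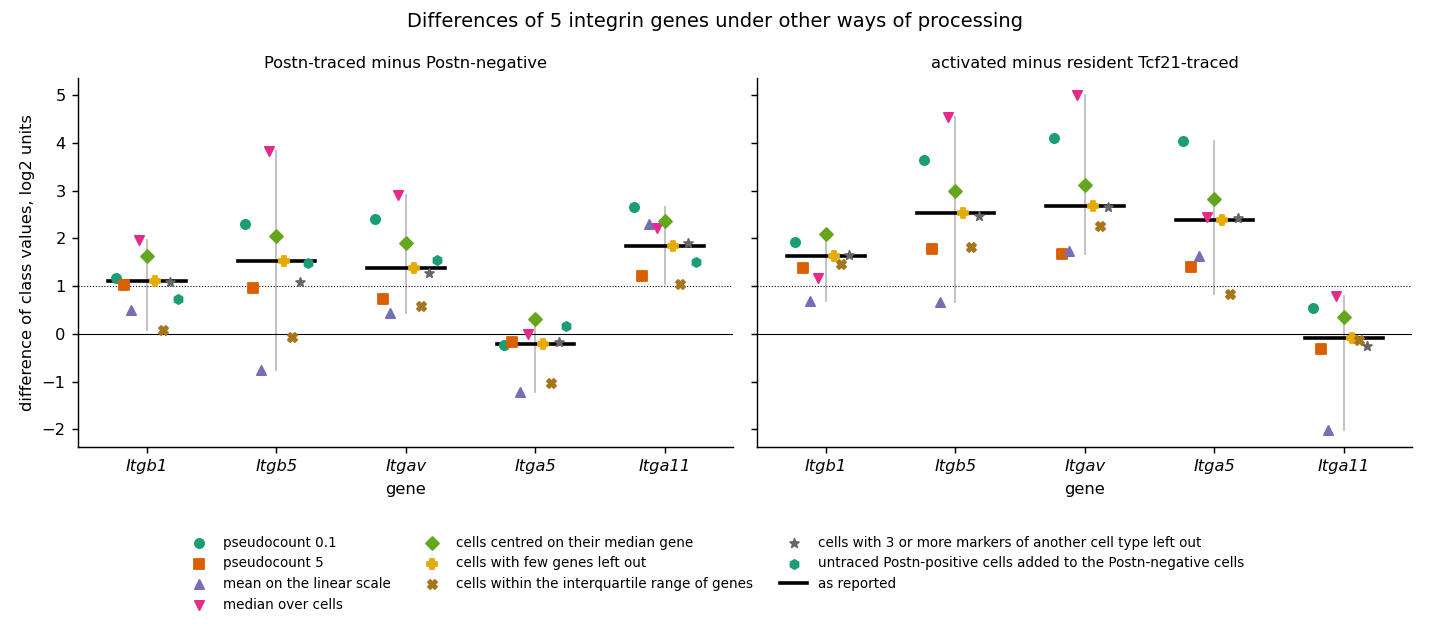
Difference of class values in log2 units (vertical axis) for 5 integrin genes (horizontal axis) in Postn-traced against Postn-negative cells (left) and in activated against resident Tcf21-traced cells (right), as reported (black bars) and under other ways of processing (symbols). Itga11 stays above 1 on the left under all of them, from 1.05 to 2.66, Itgav stays above 1 on the right, from 1.68 to 5.00, and Itgb5 on the left spans -0.77 to 3.83.

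A receptor needs both subunits, so alpha and beta genes were also counted in the same cell for the 8 known pairs. RNA of both genes in a cell does not show that the receptor protein is present. Itgav with Itgb1 was the commonest pair, in 34 of 44 activated Tcf21-traced cells (77.3%, interval 62.2% to 88.5%), 18 of 27 Postn-traced, 18 of 28 untraced Postn-positive and 17 of 29 scar cells. It was rarer in the Postn-negative (9 of 24), resident CD31- CD45- (5 of 12) and resident Tcf21-traced cells (4 of 17, 23.5%, 6.81% to 49.9%). Itgav with Itgb5, which forms a vitronectin receptor, followed that order closely, from 29 of 44 activated Tcf21-traced cells (65.9%, 50.1% to 79.5%) to 3 of 17 resident Tcf21-traced cells (17.6%, 3.80% to 43.4%). Itgav and Itgb5 were each above 5 TPM in 35 of these 44 activated cells, and in 6 and 8 of the 17 resident cells. Whether the pair counts go beyond these single shares was not tested. The activated and the resident Tcf21-traced cells come from different captures. By contrast, Itgav with Itgb3 was found in 3 cells each of the untraced Postn-positive, activated Tcf21-traced and scar classes, in 1 Postn-traced cell and in 0 cells of the other classes.

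Itga5 with Itgb1, the main fibronectin receptor, was found in 22 of 44 activated Tcf21-traced and 14 of 28 untraced Postn-positive cells (50% each) and in 10 of 29 scar cells. It was found in 7 of 27 Postn-traced, 6 of 24 Postn-negative, 2 of 17 resident Tcf21-traced and 0 of 12 resident CD31- CD45- cells. Itga11 with Itgb1, a collagen receptor, was most frequent in the untraced Postn-positive (14 of 28) and Postn-traced cells (11 of 27, 40.7%, interval 22.4% to 61.2%) and least in the Postn-negative cells (3 of 24, 12.5%, 2.66% to 32.4%). Nearly every cell with Itga5 or Itga11 also held Itgb1, with 10 of 11 such cells for Itga5 in the scar class and 11 of 12 for Itga11 in the Postn-traced class. Since Itgb1 was present in most cells, the alpha gene set these counts.

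At least 1 known pair was present in 26 of 28 untraced Postn-positive (92.9%), 40 of 44 activated Tcf21-traced (90.9%, interval 78.3% to 97.5%) and 22 of 27 Postn-traced cells (81.5%). The scar class had 22 of 29, or 21 of 23 (91.3%) without its 6 cells with few genes. Shares were lower in the Postn-negative (14 of 24), resident CD31- CD45- (7 of 12) and resident Tcf21-traced cells (8 of 17, 47.1%). Many cells held several alpha genes: 20 of 28 untraced Postn-positive, 28 of 44 activated Tcf21-traced, 16 of 27 Postn-traced and 15 of 29 scar cells had 2 or more of the 6, against 8 of 24 Postn-negative, 3 of 17 resident Tcf21-traced and 2 of 12 resident CD31- CD45- cells. This order follows that of the number of detected genes in part, and the part of detection in it was not tested.

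**Figure D5:**
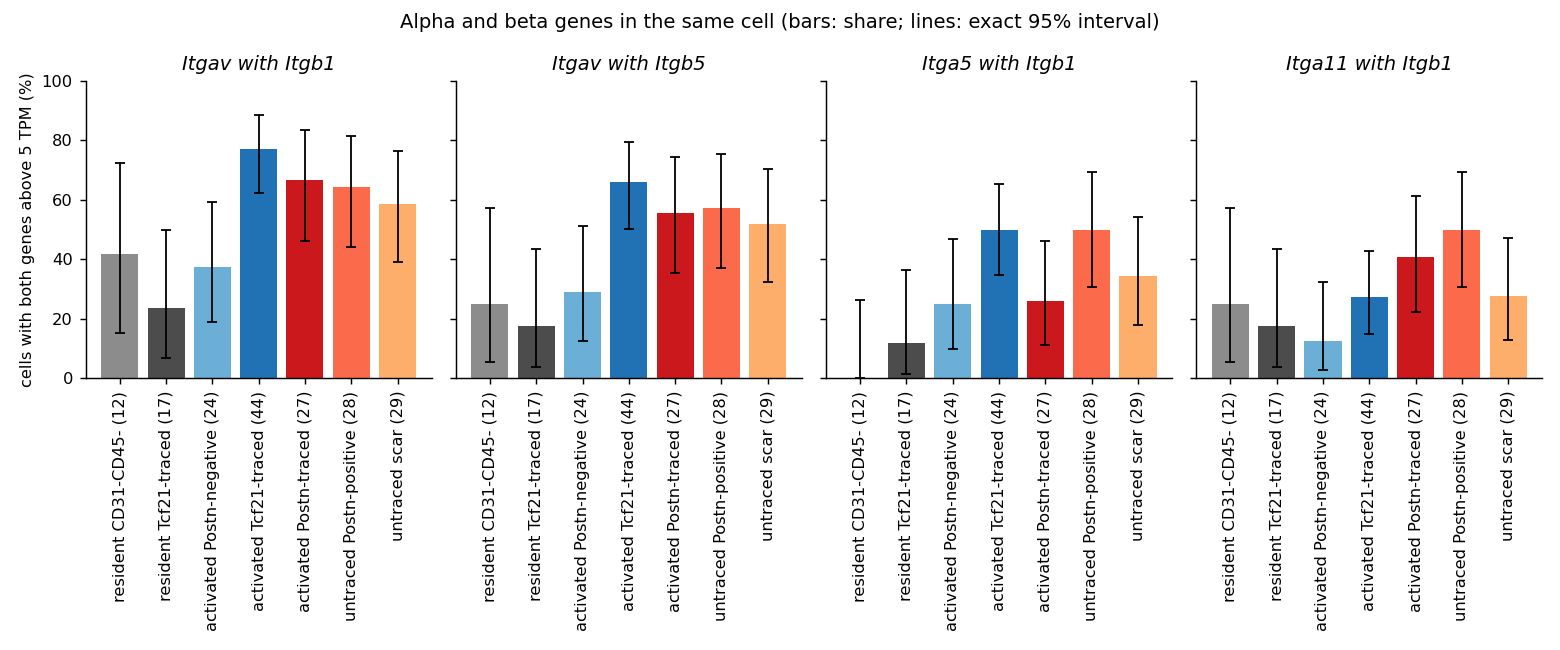
Percent of cells with both genes of a pair above 5 TPM (vertical axis) in 7 classes (horizontal axis, number of cells in brackets), as bars with exact 95% intervals, for Itgav with Itgb1, Itgav with Itgb5, Itga5 with Itgb1 and Itga11 with Itgb1. Activated Tcf21-traced cells lead the pairs of Itgav (77.3% and 65.9%), while untraced Postn-positive and Postn-traced cells lead Itga11 with Itgb1 (50% and 40.7%).

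Across the 57 cells of the Postn-tracer capture, correlations between integrins ran from -0.20 to 0.35. Those of Itga11 and Itgav with the number of detected genes were higher than any of these. With that number, Pearson's correlation was 0.46 for Itga11, 0.42 for Itgav, 0.36 for Itgb1, 0.27 for Itga5 and 0.18 for Itgb5, and over the 63 cells of the Tcf21-tracer capture it was 0.07, 0.54, 0.24, 0.36 and 0.08. Among partner subunits, Itgav with Itgb3 gave 0.35 and 0.14 in these captures, Itgav with Itgb5 0.10 and 0.32, Itgav with Itgb1 0.00 and 0.19, and Itga11 with Itgb1 0.11 and -0.10. Such values in sparse data neither show nor exclude a tie between partner subunits. All points of a capture share the date-like prefix of their names, and the cells differ in class and in detected genes.

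Itgb1, Itgb5, Itga11 and Itgav reached 5 TPM in 25% or more of the Postn-tracer capture, and the genes most like each were sought among 4031 genes there. For Itgb5, the collagen cross-linking gene Loxl1 was among the nearest, with a correlation of 0.44 over 57 cells and 0.42 over the 63 cells of the Tcf21-tracer capture, beside Spag7 (0.53 and 0.10) and Trappc9 (0.44 and 0.01). The nearest genes of Itgb1 were Tmem256 (0.54 and -0.13), Tax1bp3 (0.50 and 0.29) and Arpc2 (0.48 and -0.01). For Itga11 they were Ddx42 (0.53 and -0.10), Znf512b (0.52 and -0.08) and Tet3 (0.52 and -0.02), and for Itgav they were Elof1 (0.52 and 0.09), Map1b (0.49 and 0.17) and again Tet3 (0.48 and -0.09). The values in the first capture are high by selection, since these genes were picked as the highest among 4031. Apart from Loxl1, the values in the second capture were 0.29 or less, so most of the likeness was not seen again there. By Spearman's correlation Ddx42 ranked only 275 for Itga11 and Tax1bp3 235 for Itgb1.

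The matrix ligands of these receptors were counted in the same way. Of 22 matrix ligands, 14 were more than 1 unit higher and 1 lower in Postn-traced than in Postn-negative cells, with a median of 1.86, where 16.7% of all genes and 42.4% of the widely found genes were higher and 2.35% of all genes lower. The 14 include Postn, which defines the classes. Fn1 (fibronectin, bound by the receptors of Itga5 and Itgav) was 5.98 higher, Tnc (tenascin C) 4.93 higher and Thbs2 (thrombospondin 2) 3.97 higher. In activated against resident Tcf21-traced cells 15 ligands were higher and 3 lower (median 1.69), against 16.9% of all and 47.9% of the widely found genes higher and 2.65% of all genes lower, with Fn1 at 4.57, Emilin1 at 2.90 and Col5a1 at 2.84. Postn is among these 15 too (8.51), while 3 resident Tcf21-positive cells labelled Postn-positive form a class of their own. The fibronectin receptor subunit Itga5 stood at 2.38 in the comparison of the Tcf21-traced cells and at -0.21 in that of the Postn-traced cells.

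Between the activated Tcf21-traced and the Postn-traced cells 1 ligand was higher, 8 were lower and 13 lay within 1 unit (median -0.77), where 3.43% of all genes were higher and 6.14% lower, with Tnc at -4.03 and Fn1 at -2.43. Postn, which defines the Postn-traced class, is among the 8 (-1.84). In Postn-negative infarct against resident CD31- CD45- cells 5 ligands were higher and 3 lower (10.3% and 5.2% of all genes). The counts were 7 and 1 in untraced Postn-positive against Tcf21-traced cells (5.05% and 3.34%), the 7 including Postn (1.52), which defines the first class. They were 4 and 2 in resident Tcf21-traced against resident CD31- CD45- cells (8.65% and 6.55%). Across all cells of a capture, with its classes pooled, Itga11 had a correlation with Tnc of 0.41 in the Postn-tracer and 0.20 in the Tcf21-tracer capture. Both genes had higher means in Postn-traced than in Postn-negative cells (Tnc 5.26 against 0.33, Itga11 2.78 against 0.94). Such differences between classes enter these correlations, and their part was not tested. Itgav had correlations with Postn of 0.21 and 0.51 and with Col1a1 of 0.42 and 0.25. With the number of detected genes the values were 0.46 and 0.07 for Itga11 and 0.42 and 0.54 for Itgav. Itga5 with Fn1 gave -0.03 and 0.19, and Itgav with Spp1 gave 0.00 and 0.16. Spp1 (osteopontin), a ligand of the receptors of Itgav, was above 5 TPM in 13 cells, and Npnt (nephronectin), the ligand of the receptor of Itga8, in 0 cells of any class.

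Adaptors join the tails of the beta subunits to actin. Of 22 adaptors, 7 were higher and 1 lower in Postn-traced cells (median 0.59). The higher share lies between the 16.7% of all genes and the 42.4% of the genes found in 25% or more of the cells, and 2.35% of all genes were lower. The actin cross-linkers Actn1 (4.78) and Actn4 (2.77) and the talin-binding Vcl (2.24) led, while Lims2, which binds integrin-linked kinase, was at -1.88. In activated Tcf21-traced cells 9 were higher and 0 lower (median 0.85), again between the 16.9% of all genes and the 47.9% of the widely found genes (2.65% of all genes lower), with Actn1 at 4.93, Tln2 at 2.25, Flna at 2.17 and Tln1 at 1.84, talins and filamin being among the proteins that bind beta tails. Counts were 7 higher and 0 lower for Postn-negative infarct cells (Parva 3.08, Zyx 2.92), where 10.3% of all genes were higher and 5.2% lower, and 3 and 1 for untraced Postn-positive cells (Actn4 2.41), where 5.05% and 3.34% were. They were 7 and 1 for resident Tcf21-traced cells (Itgb1bp1 2.20), against 8.65% and 6.55%, and 2 and 1 for activated Tcf21-traced against Postn-traced cells (Lims2 1.62), against 3.43% and 6.14%.

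Matrix receptors outside the integrin family formed a shorter list. Of 10 such genes, 3 were higher and 1 lower in Postn-traced cells, between the 16.7% of all genes and the 42.4% of the widely found genes (2.35% of all genes lower), with the syndecan Sdc1 at 1.85 and the collagen receptor Ddr2 at -1.75, the opposite direction to the collagen receptor Itga11. In activated against resident Tcf21-traced cells 5 were higher and 0 lower, near the 47.9% of the widely found genes and above the 16.9% of all genes (2.65% lower), with the hyaluronan receptor Cd44 at 2.88, Sdc4 at 2.64 and Ddr2 at 1.83, where Itga11 was level. Between these collagen receptors the orders of classes therefore differed. Counts were 2 and 2 in Postn-negative infarct (10.3% and 5.2% of all genes), 1 and 2 in untraced Postn-positive (5.05% and 3.34%), 1 and 2 in resident Tcf21-traced (8.65% and 6.55%) and 2 and 0 in activated Tcf21-traced against Postn-traced cells (3.43% and 6.14%).

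Of 17 further integrin subunits, 14 are listed in the table (Itgad, Itgb6 and Itgb7 are not analysed here), and most were found in few cells. Itga9, a subunit of a tenascin and osteopontin receptor that pairs with the Itgb1 product, was above 5 TPM in 39 cells. It was 1.16 higher in Postn-traced than in Postn-negative cells (9 of 27 against 3 of 24 cells) and 1.26 higher in untraced Postn-positive than in Tcf21-traced cells (7 of 19 against 6 of 44). It was thus 1 of 14 listed subunits where 16.7% and 5.05% of all genes were higher. No other subunit of the list passed 1 unit upward in any comparison. Against resident CD31- CD45- cells 1 of 14 was lower for the Postn-negative infarct and 1 for the resident Tcf21-traced cells, where 5.2% and 6.55% of all genes were. Itgb8, which pairs with the Itgav product, was above the minimum in 12 cells.

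Markers of other cell types were checked because integrins also occur in endothelium, blood cells and muscle. At least 3 of 6 fibroblast markers were above 5 TPM in 180 cells, and Dcn, the most abundant of them, was above it in every cell. No cell held 3 endothelial or 3 platelet markers. At least 3 markers were found in 3 cells for smooth muscle, in 2 for pericytes and in 1 each for leukocytes, cardiomyocytes, Schwann cells and epicardium. Single markers did differ between classes. The smooth muscle marker Acta2 was 3.29 higher in Postn-traced than in Postn-negative cells (15 of 27 against 3 of 24 cells) and 2.59 higher in activated than in resident Tcf21-traced cells. It was the only gene of its list past 1 unit in either comparison: in the first the other 5 lay within it, Smtn at -0.72 (8 of 27 against 9 of 24 cells), with a median of 0.09. The endothelial marker Tek, above 5 TPM in 47 cells, was at -1.22 in the latter comparison. Without the 8 cells that held such a set, Itga11 (1.90), Itgav (1.28), Itgb5 (1.09) and Itgb1 (1.08) were more than 1 unit higher in the 26 remaining Postn-traced than in the 22 remaining Postn-negative cells. The median difference of all genes was then 0.20. In other comparisons this removal took members past 1 unit downward: Itga1 (-1.04) in activated against resident Tcf21-traced cells, and Itga11 (-1.27) in Postn-negative infarct and Itgav (-1.22) in resident Tcf21-traced against resident CD31- CD45- cells. The shares of all genes past 1 unit after this removal are not given here, so these calls cannot be set against them.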

How the data were processed

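The deposited table was used as the authors made it and holds log2 (TPM+1) for 17171 genes in 185 cells. According to the submitters' processing notes, reads were aligned with Bowtie 1.0.0 and quantified with eXpress 1.5.1 on mm10. Of the columns, 3 belong to no sample and were left out. Cells were grouped by the class in their labels and by the date-like prefix of their names, which was taken as the capture. Class means of log2 values were subtracted. Genes above 5 TPM in at least 1 cell (15733) formed the background. A difference of more than 1 log2 unit was counted by size, without a test. The integrins and the lists (other integrin subunits, matrix ligands, adhesion adaptors, non-integrin matrix receptors and the markers of 9 cell types) were chosen with earlier results of these data known.

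Genes named as most like a member are the 3 with the highest Pearson's correlation among genes above 5 TPM in 25% or more of the Postn-tracer capture. Genes named from a list are among the 4 with the largest absolute difference in a comparison, and those named by role are Postn, Col1a1, Fn1, Tnc, Spp1, Npnt, the markers and the integrin subunits. Alternatives were another pseudocount, the linear scale, medians and centring of each cell on its median detected gene. Cells under 50% of the median gene number of their capture were removed in another. In a further one only cells within the interquartile range of gene number over both classes were kept (cells of similar gene number). Their medians still differed in every comparison, so gene number was not matched. Spearman's correlation, other minimum values and, for the background only, no gene filter were also used. Leaving out cells with 3 or more markers of another cell type, adding the untraced Postn-positive cells to the Postn-negative cells, the values of the scar class without its cells with few genes and the filter on genes in 25% of cells were chosen after seeing the data. The work used SciPy 1.17.1 for intervals, Matplotlib 3.10.9 for figures, and pandas 2.3.3 with NumPy 2.4.6 for tables, all under Python 3.11.15.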

Additional observations from a re-analysis of the deposited data

How the results depend on the processing

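Each class is a single set of cells without mouse labels, so no variation between animals is known, and 3 of the 6 comparisons join different captures. None of the 7 cells with few genes enters a comparison, so their removal bears only on the scar class and the untraced Postn-positive class. Of 387 differences of single members under the other alternatives, 33 had the opposite sign to the value reported, 2 of them among the 116 of members reported past 1 log2 unit. Under the alternatives 57 percents of all genes past 1 log2 unit moved and 43 did not, not counting the removal of cells with few genes where it takes no cell. For shares of cells these counts were 10 and 170, for pairs 3 and 125, and for correlations 2 and 10. Of the differences of single members, 82 moved, 2 were reversed and 303 stayed. The tolerance behind these labels is not stated here, so the counts give no size of change. The members past 1 log2 unit moved as follows, and the cause was not tested. Unless a share is printed, these counts stand without the share of all genes under the same alternative. They therefore do not show how the members moved relative to all genes.

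For Postn-traced against Postn-negative cells, the 4 higher members became 2 with pseudocount 5 (Itgb5 and Itgav lost) and 1 (Itga11) on the linear scale and in the cells of similar gene number. They became 3 with the untraced Postn-positive cells added (Itgb1 lost). The 0 lower members became 3 on the linear scale (Itga1, Itga4 and Itga5) and 1 (Itga5) in the cells of similar gene number. Itgb5 was at -0.77 on the linear scale and at -0.0608 in the cells of similar gene number.

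For activated against resident Tcf21-traced cells, the 4 higher members became 3 on the linear scale (Itgb1 and Itgb5 lost, Itga4 gained) and 3 in the cells of similar gene number (Itga5 lost). The 0 lower members became 4 on the linear scale (Itgb3, Itga1, Itga8 and Itga11) and 1 (Itga1) with pseudocount 0.1, in the cells of similar gene number and without cells that hold markers of another type.

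For Postn-negative infarct against resident CD31- CD45- cells, the 2 higher members became 1 with pseudocount 5 (Itgb5 lost), 5 on the linear scale (Itga1, Itga4 and Itga8 gained) and 1 by medians (Itga5 lost). In the cells of similar gene number Itgb1 took the place of Itgb5. The 0 lower members became 1 on the linear scale and without cells that hold other markers (Itga11) and 1 by medians and in the cells of similar gene number (Itgav).

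For untraced Postn-positive against Tcf21-traced cells, the 2 higher members became 0 with pseudocount 5. They became 3 with centred cells (Itgb5 gained), where 9.38% of all genes were higher. Itga11 stayed with Itgb5 in place of Itga1 on the linear scale, and with Itga5 in place of Itga1 by medians and in the cells of similar gene number. The 0 lower members became 1 (Itga8) on the linear scale.

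For resident Tcf21-traced against resident CD31- CD45- cells, the 1 higher member became 2 with pseudocount 0.1 (Itga5 gained), 0 with pseudocount 5, 5 on the linear scale (Itgb3, Itgb5, Itga5 and Itga8 gained), 2 by medians (Itgb1 and Itgb5, Itga1 lost) and 2 in the cells of similar gene number (Itgb1 gained). The 0 lower members became 1 (Itgav) with pseudocount 0.1, on the linear scale, by medians, in the cells of similar gene number and without cells that hold other markers.

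For activated Tcf21-traced against Postn-traced cells, the 2 higher members became 3 with pseudocount 0.1 (Itgb5 gained), 3 on the linear scale (Itga1 and Itga4 gained, Itgb1 lost), and 1 (Itga5) with pseudocount 5 and in the cells of similar gene number. By medians Itgav took the place of Itgb1. The 1 lower member became 0 with pseudocount 5.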
